A study of Rattus norvegicus with 9 samples.

Results

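The 9 small RNA libraries of rat striatum were split by their level of miR-204-5p, a miRNA that is abundant in the choroid plexus. The libraries were chosen by this measured level alone. A library counted as high at 500 or more CPM (counts per 1000000 counts of the library), and as low below that. Of the 9 libraries, 4 were high and 5 were low. The high libraries were control 2, control 3, MMT 3 and MnCl2 1. The low libraries were control 1, MMT 1, MMT 2, MnCl2 2 and MnCl2 3, so each treatment group held both kinds.

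The study dosed 8-week-old rats by gavage with one of 3 treatments, daily on 6 days of each week over 8 weeks, and sequenced RNA of 15 to 45 nucleotides from the striatum. Controls received corn oil at 1 ml/kg, and the MMT group received methylcyclopentadienyl manganese tricarbonyl, an organic manganese fuel additive, at 4 mg/kg, or close to 1 mg/kg as manganese, dissolved in corn oil. The MnCl2 group received manganese chloride tetrahydrate at 200 mg/kg in saline at 10 ml/kg, a vehicle that the controls did not receive, and was labelled the positive control. Each group has 3 libraries, from a series of 18 rats (9 male and 9 female), and the labels give neither the sex behind a library nor whether it came from 1 rat or a pool. Tests between treatments below are therefore set against a spread among libraries that may be technical.

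The choroid plexus is a folded epithelium in the brain ventricles that secretes cerebrospinal fluid, and the lateral ventricle borders the striatum. Its epithelial cells are rich in miR-204, which is made from an intron of the ion channel gene Trpm3, and in the serotonin receptor gene Htr2c, whose introns hold miR-448, miR-1298, miR-1912 and miR-764. The ependyma lining the ventricles and other multiciliated epithelia express miR-34b and miR-34c, which are made from 1 primary transcript. Htr2c is also expressed by neurons, so its miRNAs are not particular to the choroid plexus.

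MiR-204-5p, which alone made the split, and miRNAs that moved with it are shown first. The seed (bases 2 to 8, which pair with target mRNAs) is in capitals. Sequences are those of RefSeq on the GRCr8 assembly, which holds 55 of the 61 miRNA entries considered, and all were identical to the deposited sequences. MiR-211-5p is shown because it shares its seed with miR-204-5p, and miR-34b-5p and miR-34a-5p because they share theirs with miR-34c-5p.
rno-miR-204-5p: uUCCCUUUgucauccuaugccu
rno-miR-211-5p: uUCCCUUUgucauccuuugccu
rno-miR-448-3p: uUGCAUAUguaggauguccca
rno-miR-1298: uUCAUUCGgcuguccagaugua
rno-miR-34c-5p: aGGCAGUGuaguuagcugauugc
rno-miR-34b-5p: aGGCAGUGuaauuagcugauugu
rno-miR-34a-5p: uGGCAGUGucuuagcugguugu

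On GRCr8, miR-204-5p lies at chr1:229743493-229743514 on the plus strand, within the span of Trpm3. MiR-448-3p lies at chrX:115642026-115642046 and miR-1298 at chrX:115556987-115557008, both on the plus strand and both within the span of Htr2c. MiR-34c-5p (chr8:60306133-60306155) and miR-34b-5p (chr8:60306657-60306679) lie on the minus strand within the span of Hoatz. MiR-204-5p and miR-211-5p differ at 1 of 22 bases, and miR-34b-5p and miR-34c-5p at 2 of 23. How the authors placed reads between such near-identical sequences is not given in the sources used here.

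The values that made the split were well apart. As CPM of the library total, miR-204-5p stood at 1047 in control 2, 799 in control 3, 1752 in MMT 3 and 1100.4 in MnCl2 1. It stood at 311 in control 1, 227 in MMT 1, 219 in MMT 2, 247 in MnCl2 2 and 354 in MnCl2 3. The high library nearest the limit was control 3 and the low library nearest to it was MnCl2 3. The counts behind these values ran from 160 in MMT 2 to 2705 in MMT 3, and counting error was small against the gap. The exact 95% Poisson interval was 728 to 875 for control 3 and 318 to 393 for MnCl2 3, and it covers counting error only. MiR-204-5p was never among the most abundant small RNAs, ranking between 103 (MMT 3) and 419 (MMT 2) among 1759 entries.

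Total counts did not separate the classes, running from 583045 to 1543987 in high libraries and from 730044 to 2012769 in low ones. Nor did the make-up of the libraries, with miRNAs at 56.5% to 64.1% of counts in high and 56.8% to 63.9% in low libraries. The main axis of variation (first principal component, 65.4% of the variance) had control 1, a low library, at one end, and control 3 (high), MMT 2 (low) and MnCl2 2 (low) at the other, so it did not separate the classes either.

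All other entries were then compared between the 4 high and 5 low libraries, ignoring treatment. Because the libraries were sorted by a measured level, this is a description of how other small RNAs move with miR-204-5p. The edgeR threshold is used below only to count entries against the share of all entries past it, not as a test of the classes. Levels below are CPM scaled by TMM (trimmed mean of M values, which corrects for composition), which compare libraries but not lengths. A difference is the log2 ratio of high to low libraries from 1 edgeR fit over 1074 entries. In bulk tissue, a different number of cells of a type and a different amount of RNA per cell cannot be told apart.

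MiR-448-3p and miR-1298, the 2 other miRNAs taken as choroid plexus markers, followed miR-204-5p. MiR-448-3p stood at 331, 286.5, 653 and 342 CPM in control 2, control 3, MMT 3 and MnCl2 1, against 69.2, 85, 109, 60.6 and 129.7 CPM in control 1, MMT 1, MMT 2, MnCl2 2 and MnCl2 3. The lowest high library lay above the highest low library by more than the whole spread of the low ones. The means were 403 ± 168 and 90.7 ± 28.5 CPM (SD, n = 4 and 5), a log2 difference of 2.17 (SE 0.27) or 4.51-fold.

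MiR-1298 had the largest log2 difference of all 1074 entries, at 3.19 (SE 0.32) or 9.15-fold. It stood at 519.9, 398, 1194 and 664 CPM in the high libraries (in the order control 2, control 3, MMT 3, MnCl2 1). In the low libraries (in the order control 1, MMT 1, MMT 2, MnCl2 2, MnCl2 3) it stood at 43.3, 67.7, 98.5, 70.9 and 107 CPM. Its means were 694 ± 351 and 77.5 ± 25.7 CPM (SD, n = 4 and 5). For comparison, miR-204-5p itself differed by 2.09 (SE 0.26), or 4.27-fold, with means of 1188 ± 513 and 278 ± 73.9 CPM. MMT 3 was the highest library for all 3 miRNAs.

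The ratios between the markers were steadier in the high libraries than in the low ones. MiR-448-3p had 0.314 to 0.397 counts per count of miR-204-5p in the 4 high libraries and 0.192 to 0.525 in the 5 low libraries. MiR-1298 had 0.509 to 0.622 and 0.12 to 0.475. Relative to miR-204-5p, miR-1298 was thus lower in each of the low libraries than in any high one.

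The third miRNA to move with them was miR-34c-5p, which was not among the choroid plexus markers. It stood at 313, 255.5, 402 and 373 CPM in the high libraries and at 94.6, 132, 171, 122 and 174 CPM in the low libraries, in the orders above. The groups did not overlap, and the log2 difference was 1.29 (SE 0.19), or 2.45-fold. Its close relative miR-34b-5p had a difference of nearly the same size, 1.27 (SE 0.30), at lower levels of 89.1, 49.6, 90.8 and 112 against 21.9, 27.2, 36.3, 37 and 56.7 CPM. Here control 3 lay below MnCl2 3, so the groups overlapped at that pair of libraries. Whether reads were exchanged between the 2 entries, which differ at 2 bases, was not tested. The count of miR-34c-5p per count of miR-34b-5p was 3.34 to 5.16 in high and 3.07 to 4.85 in low libraries.

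**Figure D1:**
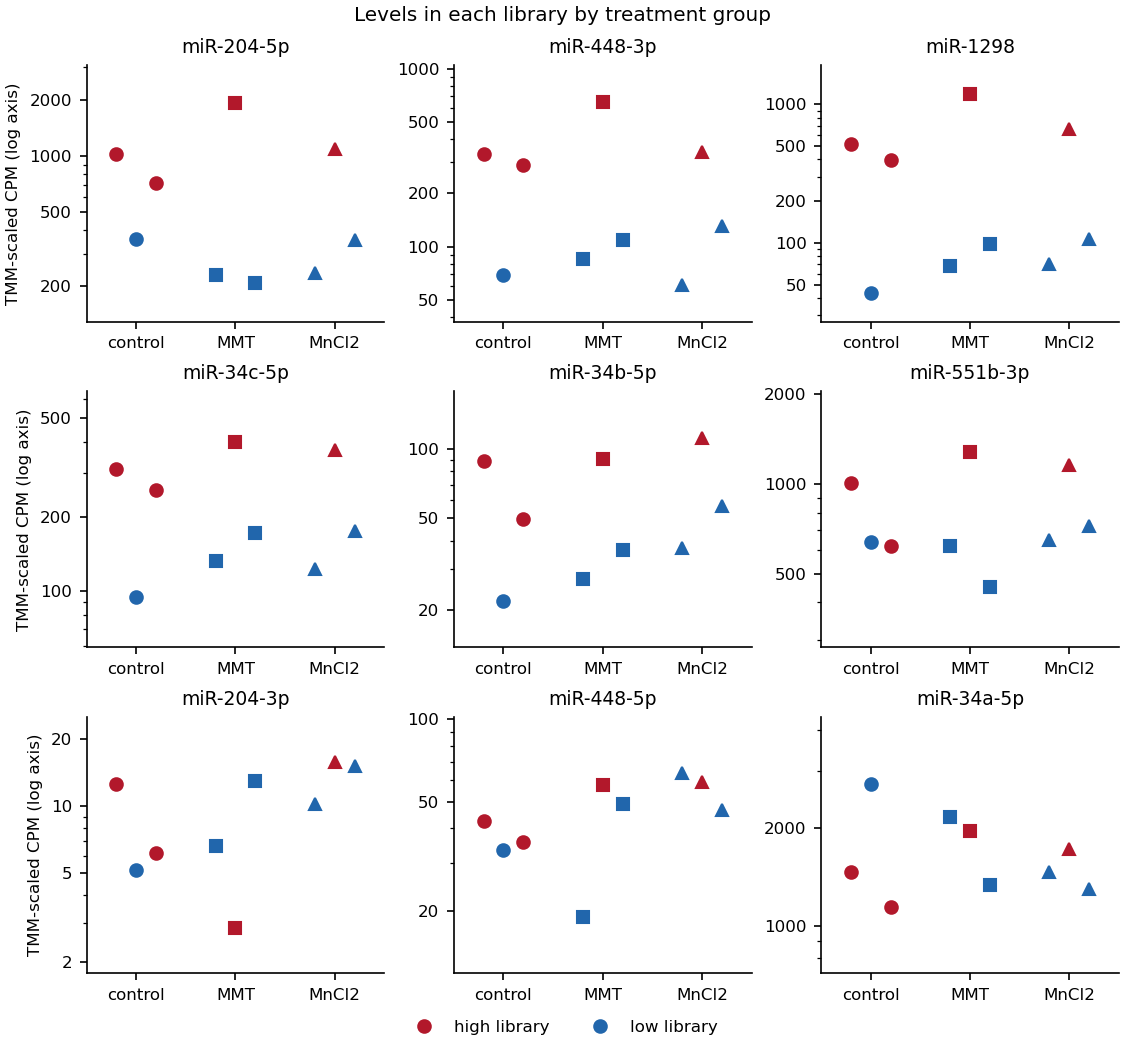
Level of 9 miRNAs in each library (TMM-scaled CPM, log axis) by treatment group; each point is 1 library (circles control, squares MMT, triangles MnCl2), red for high and blue for low in miR-204-5p, and the axis ranges differ between panels. The red points lie above all blue points for miR-204-5p, miR-448-3p, miR-1298 and miR-34c-5p, and are mixed with them for the other arms miR-204-3p and miR-448-5p and for miR-34a-5p.

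Across all entries, few others set the classes apart. In 10 of 1074 entries (0.931%) the high libraries all lay above the low ones, and in 6 (0.559%) they all lay below, which makes 16 (1.49%) set apart in either direction. Differences were positive in 519 of the 1074. The 10 higher entries include miR-204-5p, which chose the classes. A random division into 4 and 5 libraries would set apart a share of entries close to this 1.49%. Lack of overlap alone is therefore not a result about an entry. Past the edgeR threshold (Benjamini-Hochberg adjusted p of 0.05) were 4 entries (0.372%), all higher in high libraries. One of them was miR-204-5p, which had to pass since it sorted the libraries, and the other 3 were miR-448-3p, miR-1298 and miR-34c-5p. These 3 were also past it with each of the other scalings, filters, covariates and tools tried and without any 1 library. Lower entries numbered 0 there and also 0 with DESeq2. Without adjustment, a p under 0.05 was reached by 28 higher and 17 lower entries in edgeR and by 28 and 19 in DESeq2. Apart from the 3 markers, 1012 of 1071 entries (94.5%) differed by less than 0.5 on the log2 scale, and the median size of the difference was 0.14. In data simulated for this split, the fit recovered 39.2% of changes of 1.5-fold, 66.4% of those of 2-fold and 90.9% of those of 4-fold. Each simulation changed 200 of the 1074 entries, far more than the 4 past the threshold here, which makes the adjusted threshold easier to reach. The rates therefore overstate what the fit would find in these data. Here miR-34b-5p at 2.41-fold and miR-199a-5p at 2.17-fold did not pass, so changes of 2-fold and above in further entries could have been missed.

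**Figure D2:**
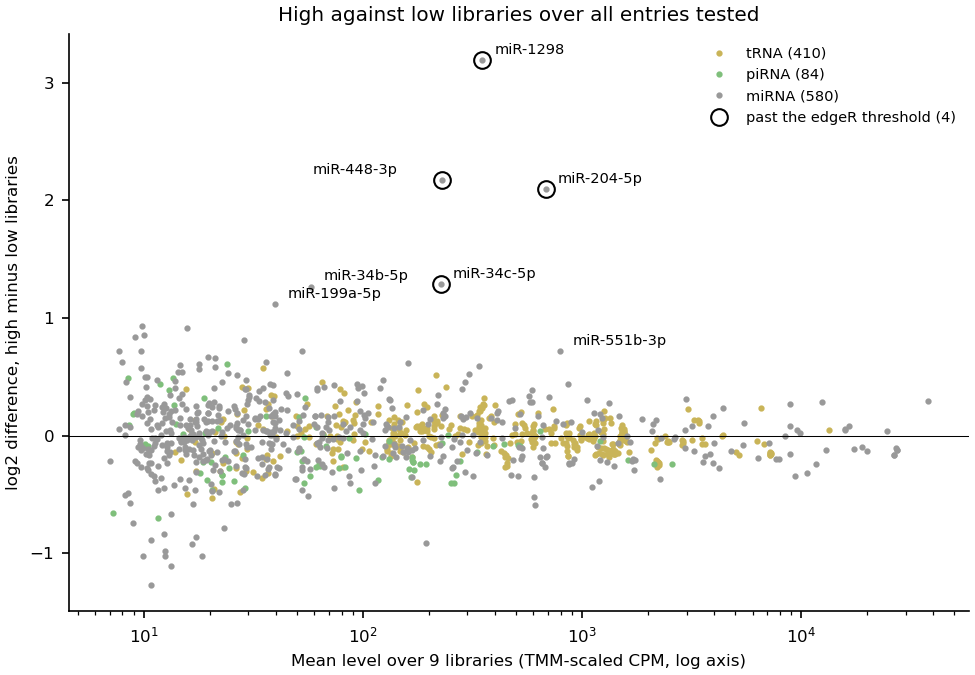
Log2 difference between high and low libraries (vertical axis) against the mean level over the 9 libraries (TMM-scaled CPM, log axis) for 1074 entries, coloured by kind, with the 4 past the edgeR threshold circled. MiR-1298, miR-448-3p and miR-204-5p stand apart at 3.19, 2.17 and 2.09, followed by miR-34c-5p at 1.29, while most of the rest lie within 0.5 of 0.

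The other arms of the miR-204 and miR-448 hairpins, and miR-211-5p, overlapped between the classes. MiR-204-3p, the other arm of the miR-204 hairpin, was scarce, at 6.19 to 12.6 CPM in control 2 and control 3, 2.84 in MMT 3 and 15.8 in MnCl2 1, and at 5.19 to 15.2 CPM in low libraries. MiR-211-5p, which is made from Trpm1 and has the seed of miR-204-5p, was at 13.5 to 27.9 CPM in high and 8.07 to 23.3 CPM in low libraries. Their log2 differences were -0.10 (SE 0.59) and 0.20 (SE 0.40). In MMT 3, the library highest in miR-204-5p, both were at their lowest among the 4 high libraries. The fourth of these entries, miR-211-3p, did not pass the filter on low counts and was at 1.42 to 6.57 and 2.88 to 14.3 CPM.

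Of the 7 Htr2c-intron miRNA entries, all tested, 2 were set apart between the classes (miR-448-3p and miR-1298), beside 16 of 1074 (1.49%) over all entries. The other 5 had log2 differences from -0.07 to 0.63. MiR-448-5p, the other arm of the miR-448 hairpin, stood at 35.6 to 59.2 CPM in high and 19 to 63.7 CPM in low libraries (log2 difference 0.22, SE 0.33). The counts of miR-448-3p per count of miR-448-5p accordingly ran from 5.78 to 11.4 in high and from 0.952 to 4.48 in low libraries. MiR-1912-3p was at 34.9 to 52.6 and 9.8 to 51.3 CPM (0.63, SE 0.40), and miR-1912-5p (0.23, SE 0.61), miR-764-3p (0.13, SE 0.52) and miR-764-5p (-0.07, SE 0.62) were scarcer still. The median of the 7 was 0.23, beside -0.01 over all 1074 entries.

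Among the miR-34 and miR-449 entries, which share a role in multiciliated cells apart from the p53-regulated miR-34a, 8 of 10 were tested. Of these, 1 (miR-34c-5p) was set apart, beside 16 of 1074 (1.49%) over all entries. MiR-34a-5p, the most abundant of the miR-34 and miR-449 entries, was at 1147 to 1959 CPM in high and 1302 to 2735 CPM in low libraries (log2 difference -0.19, SE 0.23). MiR-449a-5p was at 25.2 to 63.1 and 11.1 to 35 CPM (0.81, SE 0.40), with its highest level in MnCl2 1, and miR-449c-5p had a difference of -0.02 (SE 0.46). The passenger arms miR-34b-3p, at 13.5 to 25 and 8.07 to 24.6 CPM, and miR-34a-3p, at 4.26 to 23.2 and 4.04 to 21.6 CPM, overlapped. MiR-449a-3p had a difference of 0.72 (SE 0.66) at 2.31 to 23.2 CPM. The median of the 8 was 0.46, and the sum of the 10, most of it miR-34a-5p, ran from 1584 to 2527 CPM in high and from 1607 to 2899 CPM in low libraries.

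The epithelial miR-200 family, which maintains epithelial character in many tissues, showed no such difference. Of its 9 entries, 5 were tested and 0 were set apart, beside 16 of 1074 (1.49%) over all entries. The sum of the 9 ran from 86.5 to 246 CPM in high and from 65.7 to 272 CPM in low libraries. MiR-200a-3p was at 5.81 to 51.3 CPM in high and 0 to 64.7 CPM in low libraries, and miR-429 at 33.3 to 51.3 and 33.7 to 62.6 CPM. The 12 entries of further epithelial and sensory miRNAs (9 tested) held 1 set apart, beside the same 1.49% over all entries. This was miR-203a-5p, which was lower in high libraries at 4.26 to 6.78 against 6.92 to 31.1 CPM (log2 difference -1.27, SE 0.55). The other arm, miR-203a-3p, was at 80.4 to 171 and 71.3 to 108 CPM, with a difference of the opposite sign (0.36, SE 0.21). MiR-203a-5p has miR-203b-3p as antisense partner among the entries, and miR-203a-3p has miR-203b-5p, so that reads may count in both where strand was not used.

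Endothelial and smooth-muscle miRNAs were examined because the choroid plexus and the meninges are rich in vessels. Their 15 entries summed to 16858 to 32764 CPM in high and 18810 to 24174 CPM in low libraries, and of the 13 tested 1 was set apart and 11 had positive differences (median 0.24), beside 16 (1.49%) set apart and 519 positive of all 1074. MiR-199a-5p, a miRNA of smooth muscle and connective tissue, stood at 40.7, 34.1, 36.9 and 116 CPM against 20.8, 21.5, 25.9, 31.8 and 30.4 CPM (log2 difference 1.12, SE 0.38). The high libraries other than MnCl2 1 lay just above the low ones, and without MnCl2 1 the difference was 0.53. MnCl2 1 also held the most miR-143-3p of smooth muscle, 17054 CPM against 6742 to 9550 in the other 8 libraries. The endothelial miR-126a-3p was at 6024 to 8213 CPM in high and 6680 to 8656 CPM in low libraries (-0.07, SE 0.14). Within controls, MMT and MnCl2 the differences were -0.45, 0.06 and 1.16 for miR-143-3p and -0.52, 0.10 and 0.28 for miR-126a-3p. Both arms of miR-143, miR-145, miR-10a and miR-199a are among the 13 tested entries, which are therefore not separate observations. The part of vessels in the differences of this list was not tested.

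Blood cell miRNAs summed to 1002 to 1751 CPM in high and 1037 to 1222 CPM in low libraries. Of 9 tested entries 0 were set apart and 7 were positive, with a median of 0.27. Over all 1074 entries, 16 (1.49%) were set apart and 519 were positive, with a median of -0.01. Both arms of miR-451, miR-144, miR-223 and miR-142 are among the 9 blood cell entries, which are therefore not separate observations. MiR-142-3p of leukocytes was at 350 to 927 CPM in high and 475 to 626 CPM in low libraries (0.28, SE 0.21). Glial inflammation miRNAs had 0 of 7 set apart and a median of -0.01, and miR-21-5p was at 1146 to 1942 and 1521 to 2106 CPM. Hindbrain Hox miRNAs had 0 of 5 set apart and a median of 0.05, and muscle miRNAs 0 of 8 and a median of -0.63, with MnCl2 2, a low library, highest in miR-1b at 523 CPM against 86.2 to 281 CPM in the other 8. MiR-1b shares sequence with miR-1-3p.

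Neuronal and oligodendrocyte miRNAs stand for the striatal tissue itself. The abundant neuronal miRNAs differed little, while the oligodendrocyte list had a negative median with 0 of 5 tested members set apart. Of 11 tested neuron-enriched miRNAs 1 was set apart (lower, as were 6 of all 1074, or 0.559%). Their differences ran from -0.79 to 0.17, with 5 of 11 positive and a median of -0.02. The abundant neuronal miR-128-3p was at 16589 to 20613 CPM in high and 16893 to 23230 CPM in low libraries (-0.10, SE 0.13). MiR-218a-5p, which has miR-218b as antisense partner, was at 7835 to 11564 and 9372 to 10888 CPM (0.03, SE 0.13). The member set apart was miR-138-1-3p, a passenger arm of the miR-138 hairpin, at 51.3, 69.7, 66.7 and 57.8 CPM in high and 79, 80.9, 93.3, 92.4 and 72.9 CPM in low libraries (-0.45, SE 0.17). The main arm, miR-138-5p, had a difference of -0.11 (SE 0.14).

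Of the 5 activity-regulated miRNAs tested, which are induced by neuronal firing, 1 was set apart, beside 16 of 1074 (1.49%) over all entries. This was miR-132-3p, which was not past the edgeR threshold. It stood at 652.5, 573, 668 and 528 CPM in high and 821, 726, 698, 690.1 and 713 CPM in low libraries, a log2 difference of -0.27 (SE 0.11). The gap between the classes, from 668 to 690.1 CPM, was narrow against the spread within each. Oligodendrocyte miRNAs, which accompany myelination, had 1 of 5 members positive and a median of -0.22, beside 519 of 1074 and -0.01 over all entries. MiR-338-3p, whose antisense partner is miR-3065-5p, was at 2574 to 3933 and 3155 to 4275 CPM (-0.22, SE 0.14). The positive member was miR-219a-5p, at 474 to 1041 CPM in high and 560 to 780 CPM in low libraries (0.09, SE 0.20). The lowest of the list, singled out after the values were seen, were miR-219a-2-3p (-0.59, SE 0.17) and its antisense partner miR-219b (-0.52, SE 0.16), which overlapped between classes and may count the same reads. The 5 members are therefore not separate observations.

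**Figure D3:**
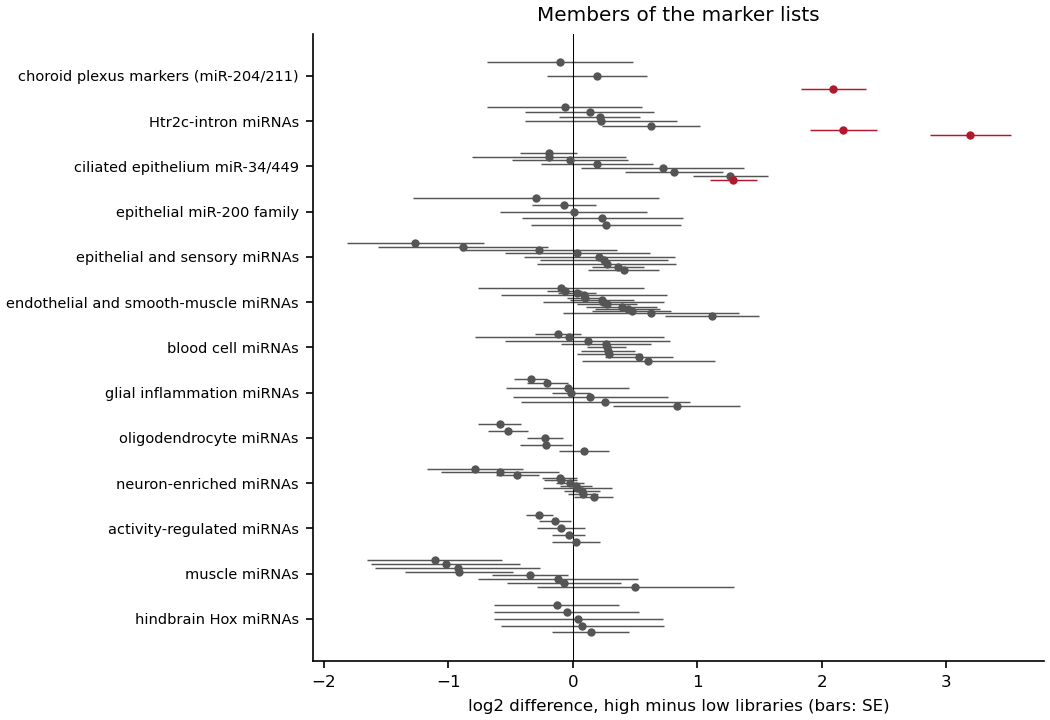
Log2 difference between high and low libraries for each tested member of 13 miRNA lists (points, with bars of 1 SE), red for members past the edgeR threshold. The red members are miR-204-5p, the pair miR-448-3p and miR-1298, and miR-34c-5p; members of the other 10 lists lie between -1.27 and 1.12.

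Of the remaining miRNAs that did not overlap between classes, 1 was higher and 3 were lower in high libraries. Over all 1074 entries, 10 (0.931%) lay higher and 6 (0.559%) lower without overlap. None of the remaining miRNAs was past the edgeR threshold. MiR-29a-5p, the minor arm of the glial miR-29a hairpin, was higher in high libraries at 65.8 to 77.6 against 50.6 to 61.6 CPM (log2 difference 0.38, SE 0.17). The lower ones were miR-106b-3p of the Mcm7 intron (9.22 to 13.9 against 17.5 to 27.2 CPM; -0.86, SE 0.35), miR-30b-3p (15.6 to 24.2 against 25.9 to 44.2 CPM; -0.57, SE 0.30) and miR-350 (59.2 to 72.8 against 73.8 to 88.1 CPM; -0.31, SE 0.16). Of the 6 lower miRNAs only miR-132-3p was above 93.3 CPM in any library. With miRNAs scaled alone, 1 entry rather than 6 lay lower without overlap.

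Likeness to miR-204-5p was also ranked without the split, by Pearson correlation of log2 CPM over the 9 libraries among 1037 other entries with a mean of at least 10 CPM. This ranking uses the same miR-204-5p values that made the split, so it is not separate from it. It is given as a description, since the libraries share scaling and composition. The highest were miR-448-3p (r = 0.94), miR-1298 (0.94), miR-551b-3p (0.89), miR-34c-5p (0.88) and miR-130a-3p (0.87), and 8 entries reached 0.8, beside a median of -0.07. MiR-448-3p, miR-1298 and miR-34c-5p were closer to each other (0.97 to 0.98) than to miR-204-5p. Spearman correlations with miR-204-5p were 0.80 for miR-448-3p, 0.78 for miR-1298, 0.85 for miR-551b-3p, 0.77 for miR-34c-5p and 0.90 for miR-130a-3p. The abundant miR-551b-3p stood at 1004, 619, 1280 and 1156 CPM in high and 637, 617, 452, 650 and 724 CPM in low libraries (log2 difference 0.72, SE 0.19). Control 3 was the exception, lying among the low libraries.

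MiR-130a-3p, at 260 to 404 CPM in high and 205 to 299 CPM in low libraries, shares its locus with miR-3590-5p (r = 0.85), which is its antisense partner. With 2821 and 2896 counts in all, the 2 entries may hold the same reads and are 1 observation. MiR-34b-5p followed (0.83). Next came a glycine tRNA gene with anticodon TCC (0.83), a threonine tRNA gene with anticodon AGT (0.79), miR-135a-5p (0.78), miR-194-5p (0.77) and the let-7 relative miR-98-5p (0.75). These last 5 had log2 differences of 0.19 to 0.40.

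Transfer RNA genes held 4 of the 10 entries that lay higher without overlap, of 410 tested. That share of 0.976% is close to the 0.931% over all entries, and 0 tRNA genes lay lower. Of these 4, 3 were glycine tRNA genes with anticodon TCC, at 52755742 to 52755813 and 94076648 to 94076719 on chromosome 13 and at 218125445 to 218125516 on chromosome 2 (coordinates as in the entry names, minus strand). The submitters' processing notes name rn6, but whether the coordinates in the entry names are on that build was not checked. The gene on chromosome 2 stood at 346, 415, 393 and 404 CPM in high and 319, 331, 334, 332 and 299 CPM in low libraries (log2 difference 0.27, SE 0.10). All 9 Gly-TCC genes had positive differences (median 0.25) and all 11 Gly-GCC genes negative ones (median -0.15), but genes of an isotype share sequence and count many of the same reads, so they are not separate observations. The fourth was a valine tRNA gene with anticodon CAC on chromosome 17 (45922967 to 45923039), at 76.6 to 105 against 62.8 to 76.4 CPM.

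The largest tRNA differences were 0.57 (SE 0.44) for a Cys-GCA gene on chromosome 4 and 0.52 (SE 0.20) for a Ser-ACT gene on chromosome 17, and -0.53 (SE 0.41) for an Ala-AGC gene on chromosome 10 and -0.50 (SE 0.50) for a Pro-AGG gene on chromosome 8. All 4 overlapped between classes, and so did each of the 84 piRNA entries tested. The piRNA entries leaned lower in high libraries, with 23 of 84 positive and a median of -0.18, beside 519 of 1074 and -0.01 over all entries. Some of them, such as pir-64264, share sequence with other piRNA entries and with tRNA genes, so they are not separate observations. The largest piRNA differences were 0.61 (SE 0.33) for pir-73117 and 0.49 (SE 0.71) for pir-83725, against -0.70 (SE 0.43) for pir-64264 and -0.66 (SE 0.80) for pir-178901. No tRNA or piRNA entry differed 2-fold between classes, while 6 miRNAs were at least 2-fold higher (0.559% of all entries) and 5 at least 2-fold lower (0.466%).

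Differences were also taken within each treatment group. For miR-448-3p, miR-1298 and miR-34c-5p the absence of overlap between classes requires a positive difference in each group, so only its size is informative. The high minus low difference in mean log2 CPM of miR-448-3p was 2.12 among controls (2 high libraries and 1 low), 2.74 in MMT (1 and 2) and 1.92 in MnCl2 (1 and 2). For miR-1298 it was 3.34, 3.84 and 2.90, and for miR-34c-5p 1.56, 1.41 and 1.34. The differences of miR-551b-3p were less even, at 0.31, 1.27 and 0.75, and those of miR-130a-3p were 0.03, 0.77 and 0.63. MiR-199a-5p differed by 0.79, 0.61 and 1.83, the last resting on MnCl2 1.

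**Figure D4:**
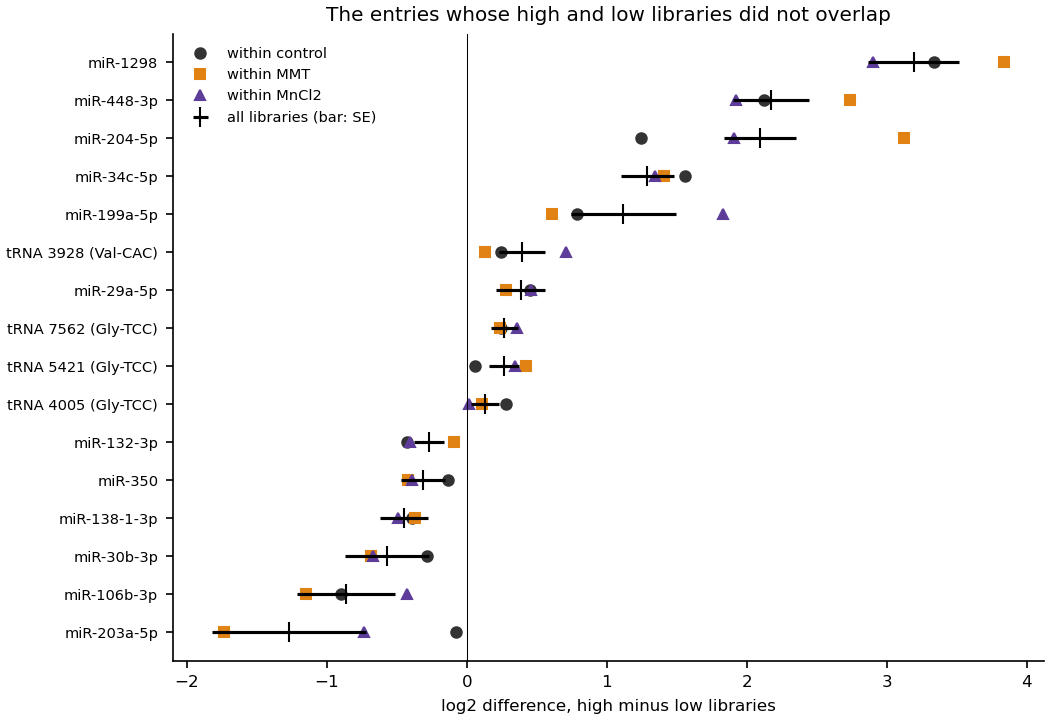
High minus low difference on the log2 scale for the 16 entries whose classes did not overlap: vertical ticks with bars of 1 SE for all libraries, symbols for each treatment group alone. All symbols lie on the side of their tick, which absence of overlap requires; those of miR-1298 run from 2.90 to 3.84 and those of miR-34c-5p from 1.34 to 1.56.

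Treatment itself, which the split ignored, was tested for these miRNAs in an edgeR fit of the 3 groups over 1113 entries, in which 0 entries (0%) passed in any of the 3 comparisons. At an unadjusted p under 0.05, edgeR had 2 higher and 22 lower for MMT against control, 16 and 35 for MnCl2 against control, and 15 and 7 for MMT against MnCl2. DESeq2 called 0 in each as well and had 3 and 20, 16 and 53, and 29 and 5 at an unadjusted p under 0.05. MiR-204-5p averaged 696 ± 342 CPM among controls, 787 ± 983 CPM with MMT and 579 ± 496 CPM with MnCl2 (SD, n = 3). Its log2 fold change was 0.19 (SE 1.02, edgeR adjusted p = 1) for MMT against control and -0.27 (SE 1.02, edgeR adjusted p = 0.971) for MnCl2 against control. The SE is about as large as a 2-fold change, and within each group the highest library lay several-fold above the lowest.

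MiR-1298 averaged 319 ± 249.6 CPM among controls, 454 ± 643 CPM with MMT and 292 ± 352 CPM with MnCl2 (SD, n = 3), with log2 fold changes of 0.54 (SE 1.45) and -0.13 (SE 1.47) against control. MiR-448-3p had 0.35 (SE 1.03) and -0.31 (SE 1.05), and miR-34c-5p 0.12 (SE 0.59) and 0.07 (SE 0.60). All had an edgeR adjusted p of 0.971 or more. With the class as a covariate in the fit, the SE of miR-1298 for MnCl2 against control was 0.26 in place of 1.47 and its log2 fold change 0.91 (edgeR adjusted p = 0.674). The class is itself made from a choroid plexus marker, so this value depends on how libraries were sorted.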

How the data were processed

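Small RNA from the striatum of rats was measured in 9 libraries. TRIzol extraction, gel selection by size and a QIAseq miRNA library kit were used, per the labels' protocols. Trimmomatic and the build rn6 are named, per the submitters' processing notes. The sources used here give no aligner and do not say how strand or molecular identifiers were handled. The authors deposited raw counts for 1759 entries (764 miRNAs, 585 piRNAs, 410 tRNA genes) per library, as whole numbers with unequal totals.

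The split at 500 CPM, the members and the lists were chosen with earlier results of these data known. The quasi-likelihood test of edgeR 4.0.16 (R 4.3.3) was run on these counts with filterByExpr, TMM scaling and robust weights, two-sided, with Benjamini-Hochberg adjustment at 0.05 over all entries tested. The filter left 1074 entries for high against low (685 others held 0.112% of counts) and 1113 for treatment, so levels differ slightly between the fits. Correlations used log2 CPM with a prior count of 2. Entries considered for naming were the list members, and up to 12 in each direction that did not overlap with a mean of at least 10 CPM. Also considered were the 12 most like miR-204-5p, and the 2 tRNA genes and piRNAs of largest difference each way. For lists outside choroid plexus, Htr2c, miR-34/449 and miR-200, only the 2 most abundant members were considered. The text leaves some of these out, among them miR-142-5p, miR-146a-5p, miR-134-5p, miR-206-3p, miR-196a-3p, miR-196a-5p and several miR-200 entries. MiR-219a-2-3p and miR-219b were added with their values known. The alternatives comprised DESeq2 1.42.0, other scalings, filters, covariates and splits, and each library left out. Scripts were tested on simulated data (5 simulations of 200 changed entries; 18 of 668 calls were false). Other steps used Python 3.11.15. Same-numbered libraries did not consistently deviate together, so numbers were not used to pair.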

Additional observations from a re-analysis of the deposited data

Results flagged for a closer look

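Of 136 sets of high or low libraries examined for the entries considered for naming, 10 held 1 library far from its nearest neighbour, where chance gives about 1 in 20. MnCl2 1 stood apart among the high libraries for 3 entries: miR-143-3p at 17054 CPM (the next at 8231), miR-199a-5p at 116 CPM (the next at 40.7) and miR-200a-3p at 51.3 CPM (the next at 13.5). MMT 3 stood apart among the high libraries for miR-448-3p, at 653 CPM with the next at 342. Control 3 was highest among them for the Gly-TCC tRNA gene at 94076648 to 94076719 on chromosome 13, at 399 CPM with the next at 355.

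Among the low libraries, control 1 stood apart for 3 entries: highest for miR-132-3p at 821 CPM (the next at 726), lowest for miR-211-5p at 8.07 CPM (the next at 19.4) and lowest for the Ser-ACT tRNA gene on chromosome 17 at 132 CPM (the next at 185). MMT 2 held the most miR-203a-5p, 31.1 CPM with the next at 13.3, and MnCl2 2 the most miR-30b-3p, 44.2 CPM with the next at 30.4. In 22 of 67 entries compared, the high libraries of a treatment group lay above its low ones and those of another group lay below. Each side held 1 or 2 libraries, so opposite orders of this kind arise often by chance. Entries whose classes did not overlap cannot show them. The difference between groups was not tested and no share over all entries is given. The count is therefore not a result about these entries.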

How the results depend on the processing

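Between high and low libraries the alternatives called 4 to 6 entries. MiR-204-5p, which sorted the libraries, is always among them and says nothing of stability, and miR-448-3p, miR-1298 and miR-34c-5p passed in each alternative run. The added ones were miR-34b-5p (miRNAs alone, DESeq2, without control 3) and miR-551b-3p (total count as a covariate, without control 3, and the level of miR-204-5p as a continuous term, an alternative chosen after seeing the data). Ranking libraries by miR-448-3p or miR-1298, or splitting at the largest gap, gave the same classes and so tested nothing. Entries that did not overlap numbered 10 higher and 6 lower. With 1 library left out, they ran from 11 to 34 higher and from 6 to 19 lower, as fewer libraries leave less room to overlap, the highest counts coming without control 3 (34 higher, 16 lower) and without MnCl2 2 (19 lower). With miRNAs alone 1 lay lower. For MnCl2 against control, 1 entry passed with no filter on low counts, where 0 passed otherwise.

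Treatment fold changes of the 3 markers turned with the setting, their SE being near 1 or above. With the replicate block, MMT against control gave -0.38 for miR-204-5p, -0.066 for miR-448-3p and -0.15 for miR-1298. There MnCl2 against control gave 0.035 for miR-1298, and MMT against MnCl2 gave -0.017 for miR-204-5p and -0.19 for miR-1298. The block rests on numbers alone: same-numbered libraries correlated between -0.67 and 0.49 in their deviations, and it kept the calls of miR-448-3p, miR-1298 and miR-34c-5p between classes and called 0 entries for treatment. With the class as a covariate, MnCl2 against control gave 0.20, 0.45 and 0.91 for miR-204-5p, miR-448-3p and miR-1298. With 1 library left out, MMT against control ran from -1.66 to 0.68 for miR-204-5p, -1.22 to 0.80 for miR-448-3p and -1.94 to 1.20 for miR-1298, each lowest without MMT 3. MnCl2 against control ran from -1.23 to 0.12, -1.23 to 0.13 and -1.82 to 0.46, each lowest without MnCl2 1. MMT against MnCl2 ran from -1.39 to 1.43, -0.92 to 1.59 and -1.81 to 2.37, each lowest without MMT 3. Between classes, without MMT 3 the differences were 1.80, 1.86 and 2.83. The depth of 583045 to 2012769 counts limits scarce entries such as miR-204-3p and miR-211-5p, whose SE between classes were 0.59 and 0.40.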
